A study of Mus musculus with 2 samples.

Results

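Hist1h1c, Hist1h2bc and Hist1h4i encode a linker histone H1, a core histone H2B and the core histone H4, and were the histone-cluster genes examined here for their transcripts in cells that do not replicate DNA. They are 3 of the 69 gene rows whose symbol starts with Hist1h, Hist2h, Hist3h or Hist4h, among 27998 gene rows in all, and were taken by symbol. They were selected on their measured UMI counts in these same cells, in particular on detection in cells without S-phase genes, so their levels are given as descriptions and no test is attached to them. The cells came from the buccal mucosa, the lining of the cheek, of female C57BL/6 mice aged 12 weeks. Tissue of 10 mice was pooled and dissociated, and cells with much CD104 (integrin β4, which anchors basal keratinocytes) on their surface were sorted. That suspension was run on the 10x Chromium platform as 2 technical replicates, called library 1 and library 2 here. There was 1 group, with no genotype or treatment to compare, and 1 independent sample, so every interval below covers counting error only.

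Most histone mRNAs are made when DNA is replicated and end in a short stem-loop instead of a poly(A) tail, to which the stem-loop binding protein Slbp attaches. A number of histone-cluster genes also give polyadenylated transcripts that run on past the stem-loop or are spliced away from it. Primers of oligo(dT), on which the 10x method relies, capture polyadenylated RNA, so a count of a histone gene in such data is mainly a count of tailed transcripts. The tail itself was not measured here.

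The annotated ends of the 3 genes show where a tailed transcript can form, and their stem-loops are printed because they are the element that such a transcript does not end in. On GRCm38, Hist1h1c lies at chr13:23738808-23740367 on the plus strand as 1 exon, Hist1h2bc at chr13:23684199-23692908 on the plus strand as 2 exons, and Hist1h4i at chr13:22040636-22041362 on the minus strand as 1 exon. No other annotated gene of GENCODE M21 overlaps any of them. Capitals mark the 16 bases that match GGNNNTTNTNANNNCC, searched on the transcript strand only.
Hist1h1c stem-loop: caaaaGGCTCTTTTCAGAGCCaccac
Hist1h4i stem-loop: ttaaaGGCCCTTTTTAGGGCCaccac
Hist3h2a stem-loop: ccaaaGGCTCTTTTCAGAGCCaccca
The Hist1h1c transcript runs on for 840 bases after its stem-loop, and the Hist1h4i transcript for 330 bases. Both carry a poly(A) signal, AATAAA or ATTAAA, in their last 50 bases, shown here in capitals.
Hist1h1c end: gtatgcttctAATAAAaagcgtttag
Hist1h4i end: ttctgtttacATTAAAagtattctat
The Hist1h2bc transcript is built differently. Its first exon, of 423 bases, ends 9 bases after the stop codon, and a second exon of 733 bases at chr13:23692176-23692908 supplies the rest of the 3′ end. Neither the stem-loop letters nor a poly(A) signal within the last 50 bases was found in it. Across 58797 coding transcripts, 0.52% held the stem-loop letters in their last 300 bases and 50.2% held a poly(A) signal in their last 50 bases. Of 65 histone-cluster genes with a coding transcript, 44 held the stem-loop letters anywhere and 17 held the signal at the end of a transcript. Reads near the 3′ ends can be told apart from those of other histones: none of the 50-base words in the last 300 bases of Hist1h1c or Hist1h4i occurs in a transcript of another gene, while 3.19% of those of Hist1h2bc do, in transcripts of genes that are not histones. Over the whole transcript the shared part was 8.54% for Hist1h1c, 28.9% for Hist1h4i and 30.1% for Hist1h2bc.

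The libraries held 7215 and 9076 barcodes with 67962712 and 73935792 UMIs. A barcode was used if it showed 500 or more genes and no more than 10% of its UMIs were mitochondrial, which left 6907 and 8563 cells with medians of 7690 and 6709 UMIs. The libraries shared 104 barcodes. Cells were binned by the summed UMIs of Krt4 and Krt13, keratins of differentiating oral keratinocytes, as low (under 80 per 10000 UMIs), middle (80 to under 350) or high (350 or more). They were classed by 9 cycle genes: G2/M-high with at least 5 UMIs per 10000 of Cenpf, Ube2c and Ccnb1, genes of chromosome segregation and mitotic entry; S-high with at least 5 of Mcm3, Ung, Hells and Dtl, genes of DNA replication and repair, and fewer than 5 of the G2/M genes; cycle-low with fewer than 1 of all 9 including Mki67 and Top2a; and between for the rest. S-high cells were few, 153 in library 1 and 186 in library 2, of which 134 in each library lay in the low bin. G2/M-high cells numbered 1708 and 2254, and cycle-low cells 3046 and 3751. Markers of 7 basal keratinocyte genes summed to 15340 and 15388 CPM in the low bin, against 1838 and 2078 CPM in the high bin. Markers of other cells were also highest in the low bin. Those of antigen-presenting cells summed to 352 and 921 CPM, against 15.5 and 17.8 CPM in the high bin. Glandular markers summed to 154 and 129 CPM, against 13.9 and 13.7 CPM, and T and NK cell markers to 28.3 and 33.6 CPM, against 2.72 and 3.25 CPM.

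All 3 genes were detected, and their UMIs were spread unevenly over cells. Hist1h1c had 0.631 UMIs per 10000 in library 1 and 0.639 in library 2, Hist1h2bc had 1.74 and 1.82, and Hist1h4i had 0.169 and 0.154. Together they held 35513 UMIs, 64.28% of the 55251 UMIs of all histone-cluster genes. After each cell was thinned to 3000 UMIs, 56.3% and 55.6% of cells held no UMI of any of the 3 genes, and 1.01% and 1.09% held UMIs of all 3. A small set of cells carried much of the Hist1h1c signal: the 1.85% and 1.98% of low-bin cells with 5 or more UMIs held 22.1% and 24.2% of its low-bin UMIs. For Hist1h2bc, 4.89% and 3.93% of low-bin cells had 5 or more and held 34.0% and 30.3% of its low-bin UMIs. No low-bin cell had 5 or more UMIs of Hist1h4i.

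Cells rich in S-phase genes held little Hist1h1c and Hist1h2bc, but not little Hist1h4i. In the low bin, Hist1h1c, a linker histone that binds DNA between nucleosomes, had 0.350 and 0.373 UMIs per 10000 in S-high cells of libraries 1 and 2, against 0.657 and 0.771 in cycle-low cells. The log2 differences were -0.91 (95% interval -1.45 to -0.40) and -1.05 (-1.63 to -0.52). Hist1h1c was thus lower in S-high cells of both libraries by the size rule used throughout, a change of 1.5-fold or more that has the same sign in libraries 1 and 2, for a gene averaging 20 CPM (UMIs per 1000000) or more. With the class limits at 8 UMIs per 10000 the mean log2 difference of Hist1h1c was -0.57 and the call was lost. Hist1h2bc, a partner of H2A in the nucleosome core, had 0.247 and 0.286 in S-high cells, against 1.42 and 1.72 in cycle-low cells. Its log2 differences were -2.52 (-3.17 to -1.94) and -2.59, the largest drop among the 3 genes. Over all genes of the same comparison, 3.56% of 5448 were lower and 9.91% were higher by the same rule. The shares of cells with a UMI after thinning went the same way, 8.21% and 8.96% in S-high against 15.5% and 17.5% in cycle-low cells for Hist1h1c, and 7.46% and 8.21% against 28.3% and 32.4% for Hist1h2bc.

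Hist1h4i, whose product pairs with H3 in the core, did not share that drop. It had 0.237 and 0.174 UMIs per 10000 in low-bin S-high cells, resting on 23 and 14 UMIs, against 0.0687 and 0.110 in cycle-low cells. Its log2 differences were 1.79 (1.01 to 2.53) and 0.66 (-0.28 to 1.5). At a mean of 14.7 CPM the gene fell under the minimum for a call, and the interval of library 2 includes 0. These values describe genes that were selected for UMIs in cells without S-phase genes, and they are no check of that choice. S-high cells of the middle bin were too few to compare, 19 and 50.

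Finer steps of the S-gene sum showed the decline of Hist1h2bc as a series. Over all bins, Hist1h2bc had 1.93 UMIs per 10000 in library 1 cells with no S-gene UMI, 1.30 at above 0 to under 2 per 10000, 0.654 at 2 to under 5, 0.246 at 5 to under 10 and 0.132 at 10 or more. In library 2 the same steps gave 2.01, 1.37, 0.705, 0.373 and 0.566, the last from 11 UMIs in 35 cells. Hist1h1c had 0.661 and 0.665 with no S-gene UMI and 0.418 and 0.303 at 5 to under 10, and at 10 or more the libraries parted, with 0.296 from 9 UMIs and 0.669 from 13 UMIs. Hist1h4i instead had 0.146 and 0.134 with no S-gene UMI and 0.382 and 0.264 at 5 to under 10.

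**Figure D1:**
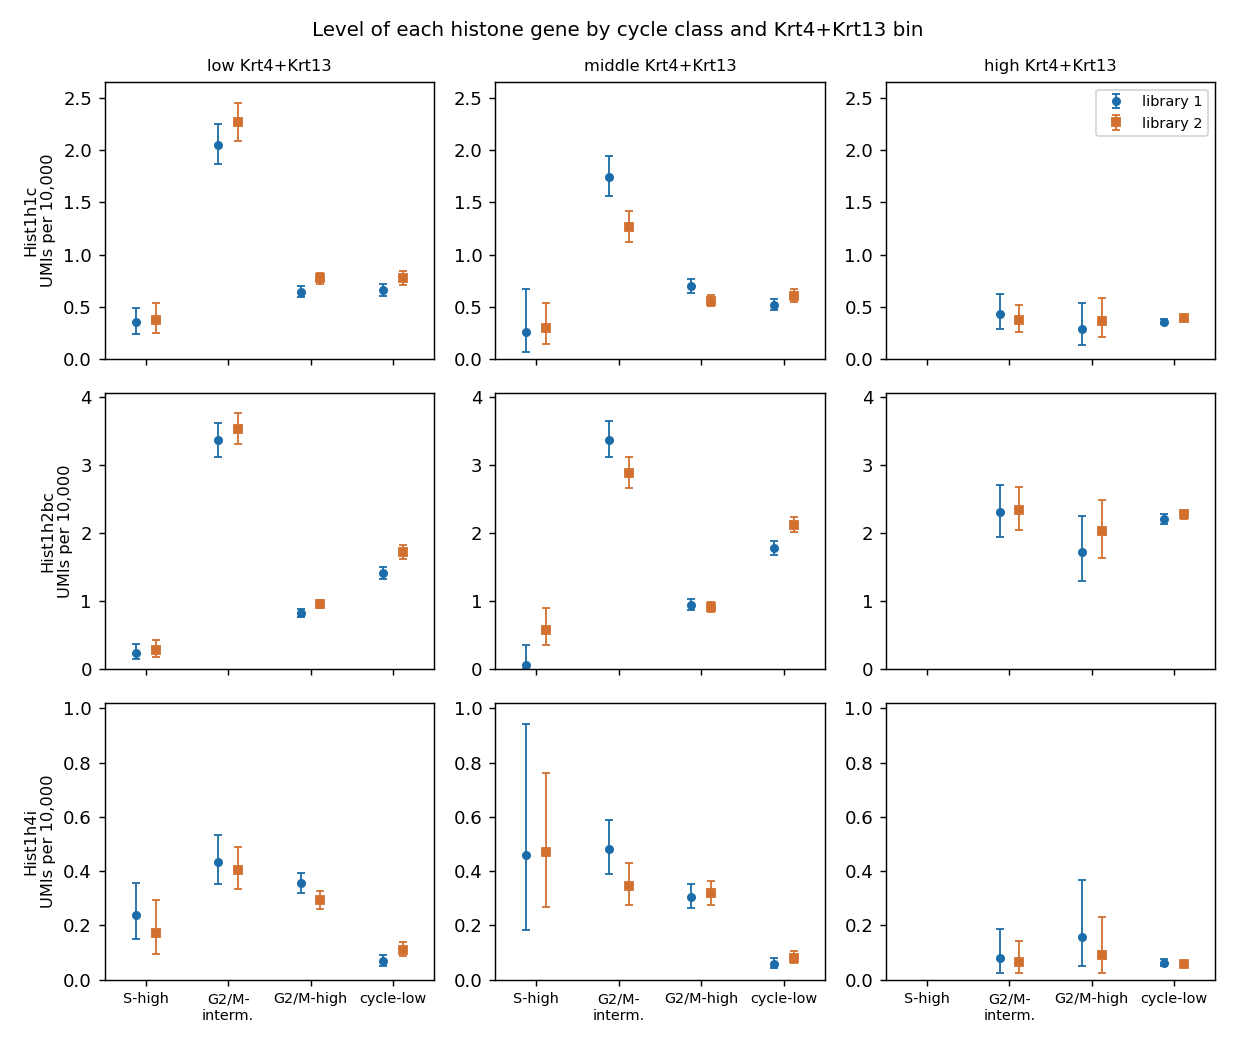
UMIs per 10000 (y axis) of Hist1h1c, Hist1h2bc and Hist1h4i (rows) in cells of the low, middle and high Krt4+Krt13 bins (columns), by cycle class (x axis), with 1 point per library and bars for the 95% Poisson interval. G2/M-intermediate cells have no S-gene UMI and 2 to under 10 UMIs per 10000 of the G2/M genes, and 33.1% and 32.9% of them are also plotted in G2/M-high. In the low bin Hist1h1c stood at 2.05 and 2.26 in the G2/M-intermediate cells, against 0.657 and 0.771 in cycle-low cells, and no such difference is seen in the high bin. S-high cells of the high bin, 0 and 2 in number, are not plotted.

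In cells rich in G2/M genes each of the 3 genes behaved differently. Hist1h2bc was lower: it had 0.832 and 0.955 UMIs per 10000 in low-bin G2/M-high cells, against 1.42 and 1.72 in cycle-low cells, with log2 differences of -0.77 and -0.85. It was lower in the middle bin too, at 0.952 and 0.916 against 1.79 and 2.12, with log2 differences of -0.91 and -1.21. Hist1h1c was level, at 0.642 and 0.772 in low-bin G2/M-high cells against 0.657 and 0.771 in cycle-low cells. Its log2 differences were -0.03 (-0.21 to 0.14) and 0.00 (-0.16 to 0.16). Both intervals lie inside a 1.5-fold change, a log2 difference of 0.58, but they cover counting error only and no spread between cells. In the middle bin the libraries differed in sign for Hist1h1c, which had 0.699 and 0.557 in G2/M-high cells, against 0.520 and 0.604 in cycle-low cells, and it was not called.

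Hist1h4i was higher in G2/M-high cells. It had 0.356 and 0.293 UMIs per 10000 in low-bin G2/M-high cells, against 0.0687 and 0.110 in cycle-low cells, with log2 differences of 2.37 (1.94 to 2.84) and 1.41 (1.04 to 1.80). In the middle bin it had 0.306 and 0.318, against 0.0593 and 0.0805, and log2 differences of 2.37 and 1.98, but its mean of 19.1 CPM was just under the minimum. Of 5477 genes in the low bin, 10.1% were higher and 4.2% were lower, and of 5187 in the middle bin 9.85% were higher and 2.78% were lower. The call of Hist1h4i in the low bin sat near the minimum as well, with a mean of 20.7 CPM. It was lost when the class limits were set at 8 UMIs per 10000, and the call of Hist1h2bc in the low bin was lost with thinned cells, where its log2 difference was -0.48. Median UMIs per cell were 8189 and 6750 in low-bin G2/M-high cells, against 5543 and 4649 in cycle-low cells. After thinning, 11.9% and 9.45% of the G2/M-high cells had a Hist1h4i UMI, against 1.62% and 3.37% of the cycle-low cells.

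In low-bin cells with no S-gene UMI, all 3 genes were highest at a low G2/M-gene sum, 2 to under 10 UMIs per 10000. Hist1h1c and Hist1h2bc peaked at 2 to under 5, below the G2/M-high limit. Hist1h4i peaked at 5 to under 10, which lies within G2/M-high. Among cells with no S-gene UMI in the low bin, Hist1h1c had 0.691 and 0.875 UMIs per 10000 where the G2/M sum was 0, 1.56 and 1.29 at above 0 to under 2, 2.23 and 2.32 at 2 to under 5, 1.75 and 2.16 at 5 to under 10, and 0.576 and 0.634 at 10 or more. Hist1h2bc had 1.51 and 1.81 at a G2/M sum of 0, 2.56 and 2.02 at above 0 to under 2, 3.70 and 3.70 at 2 to under 5, 2.83 and 3.24 at 5 to under 10, and 0.807 and 0.873 at 10 or more. Hist1h4i had its highest values 1 step later, with 0.0872 and 0.110 at 0, 0.357 and 0.339 at 2 to under 5, 0.564 and 0.520 at 5 to under 10, and 0.304 and 0.238 at 10 or more. At the last step Hist1h1c and Hist1h2bc were thus below their levels in cells with no G2/M-gene UMI, and Hist1h4i was above its own.

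**Figure D2:**
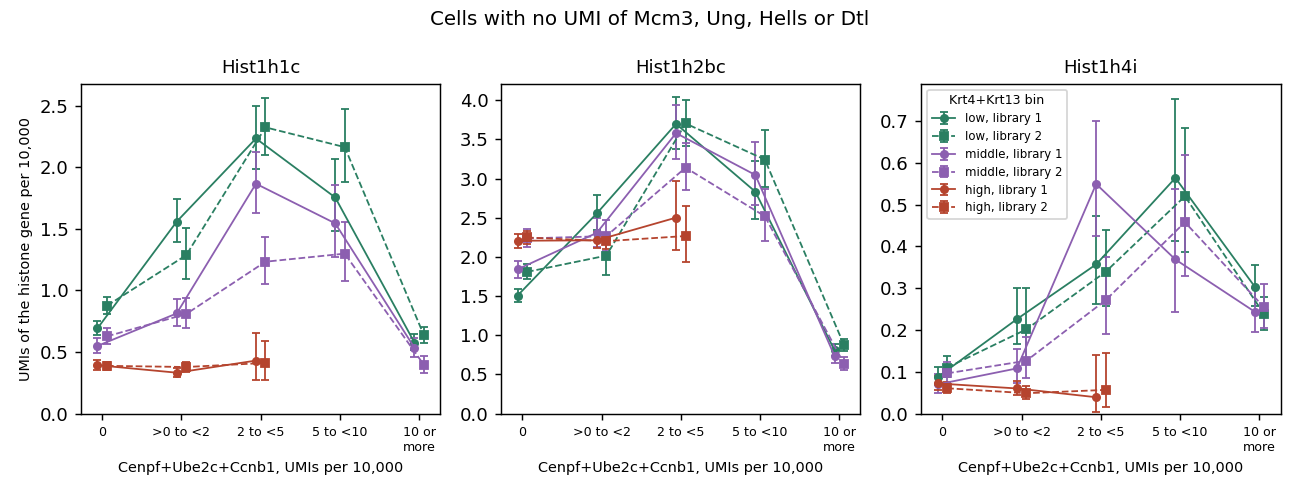
UMIs per 10000 of each histone gene (y axis) in cells with no UMI of the 4 S genes, by the sum of Cenpf, Ube2c and Ccnb1 (x axis, 5 steps), in the low, middle and high Krt4+Krt13 bins. Circles with solid lines are library 1, squares with dashed lines library 2, and bars the 95% Poisson interval. Hist1h1c and Hist1h2bc peak at 2 to under 10 in the low and middle bins and lie at their lowest at 10 or more, while the high bin stays flat over the steps that hold at least 30 cells.

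These cells, called G2/M-intermediate, were set apart after the levels had been seen, as cells with no S-gene UMI and 2 to under 10 UMIs per 10000 of the G2/M genes. They made up 653 cells (9.45%) of library 1 and 933 cells (10.9%) of library 2. In the low bin, Hist1h1c had 2.05 and 2.26 UMIs per 10000 in them, against 0.657 and 0.771 in cycle-low cells, log2 differences of 1.64 and 1.56. Hist1h2bc had 3.37 and 3.54, against 1.42 and 1.72, log2 differences of 1.25 and 1.04. Hist1h4i had 0.435 and 0.405, against 0.0687 and 0.110, log2 differences of 2.66 and 1.88. All 3 genes were thus higher by the size rule, where 2.84% of 5385 genes were higher and 0.65% lower. Set against the other G2/M-high cells of the low bin, Hist1h1c (log2 differences of 1.92 and 1.83) and Hist1h2bc (2.36 and 2.27) were again higher, among 1.44% of 5499 genes that were higher and 6.38% that were lower. Hist1h4i, with log2 differences of 0.37 (0.02 to 0.70) and 0.58 (0.25 to 0.91), was not called.

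Few other genes had this shape. Of 5187 genes that could be compared with both classes in the low bin, 2 (0.0386%) were higher in G2/M-intermediate cells than in both cycle-low and the other G2/M-high cells, and they were Hist1h2bc and Hist1h1c. Hist1h1c averaged 216 CPM there, against 59.1 CPM in the other G2/M-high cells and 71.4 CPM in cycle-low cells. Hist1h2bc averaged 345 CPM, against 69.4 and 157 CPM in the same order. Within the middle bin, 1 gene of 4923 (0.0203%) met the same condition, and it was Hist1h1c. As the class was drawn around the levels of these very genes, the counts describe it and are no independent evidence.

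The middle bin repeated most of this pattern and the high bin did not. In the middle bin Hist1h1c had 1.74 and 1.26 UMIs per 10000 in G2/M-intermediate cells, against 0.520 and 0.604 in cycle-low cells, and Hist1h4i had 0.481 and 0.347, against 0.0593 and 0.0805. Both were higher, where 3.42% of 5059 genes were higher and 0.455% lower. Against the other G2/M-high cells of that bin, Hist1h1c (log2 differences of 1.57 and 1.5) and Hist1h2bc (2.32 and 2.11) were higher and Hist1h4i was not called, where 0.592% of 5239 genes were higher and 5.5% lower. Hist1h2bc, at 3.38 and 2.89 against 1.79 and 2.12, passed 1.5-fold in library 1 only, with log2 differences of 0.92 and 0.44. In the high bin, 51 and 92 cells met the definition, and Hist1h1c had 0.430 and 0.372, against 0.359 and 0.393 in cycle-low cells. Hist1h2bc had 2.31 and 2.35 there, against 2.21 and 2.28. The log2 difference of Hist1h1c in the high bin was 0.26 (-0.35 to 0.82) in library 1 and -0.08 (-0.62 to 0.41) in library 2. None of the 3 genes was called there, where 2.63% of 4555 genes were higher and 0.571% lower.

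The peak was also present at equal depth. A low sum per 10000 can come from 1 UMI in a shallow cell, and median UMIs were 5236 and 4556 in low-bin G2/M-intermediate cells, against 5543 and 4649 in cycle-low cells. With every cell thinned to 3000 UMIs and counted again, 28.7% and 32.3% of low-bin cells with 1 G2/M-gene UMI and no S-gene UMI had a Hist1h1c UMI, 31.3% and 33.1% of those with 2 did, 14.8% and 13.5% of those with 6 or more did, and 17.8% and 19.0% of those with none did. For Hist1h2bc the shares in the same order were 45.7% and 43.5%, 38.1% and 45.2%, 15.6% and 17.6%, and 30.7% and 33.8%. With 1 G2/M-gene UMI the shares of Hist1h2bc and Hist1h1c were smaller where at least 1 S-gene UMI was present. There 19.8% and 14.2% of low-bin cells had a Hist1h2bc UMI, and 17.6% and 11.3% a Hist1h1c UMI. With 2 G2/M-gene UMIs the libraries parted for Hist1h1c, at 37.2% and 12.3%. They also parted for Hist1h4i with 1 G2/M-gene UMI, at 18.7% and 7.55% with S-gene UMIs, against 7.41% and 8.40% without.

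The single cycle gene that a cell held went with its level of these transcripts in the low bin and, in library 1, in the middle bin. Cells were grouped, after the levels had been seen, by which single gene of the 9 had a UMI. Where Cenpf, which builds the kinetochore, was the sole gene detected (189 and 218 cells), Hist1h1c had 1.23 and 1.29 UMIs per 10000 over all bins, against 0.515 and 0.550 in cells with none of the 9. Hist1h2bc had 2.93 and 3.14 in the cells with Cenpf alone, against 1.83 and 2.10. Hist1h4i had 0.243 and 0.258, against 0.0714 and 0.0815. All 3 genes were thus higher in cells with Cenpf alone in both libraries. For Hist1h2bc this did not extend to all cells with a Cenpf UMI, most of which held other cycle genes too. Hist1h2bc had 1.41 and 1.41 in them, below the 1.83 and 2.10 of cells with none. Hist1h1c, at 0.811 and 0.808, and Hist1h4i, at 0.312 and 0.275, were still above cells with none. Cells with a UMI of Mki67, the gene of the proliferation marker Ki-67, likewise had 1.37 and 1.28 of Hist1h2bc. They had 0.785 and 0.747 of Hist1h1c and 0.297 and 0.270 of Hist1h4i. Cells with a Top2a UMI had 1.12 and 1.03 of Hist1h2bc and 0.252 and 0.237 of Hist1h4i. Their Hist1h1c, at 0.534 and 0.550, was close to the 0.515 and 0.550 of cells with none.

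The groups were not spread alike over the bins, so the values were also taken within bins, a step added after the pooled values were seen. The high bin held 41.6% and 46.3% of the cells with Ube2c alone, a gene of mitotic protein degradation, and 22.8% and 29.8% of those with Cenpf alone, against 25.9% and 30.7% of the cells with none. Within the low bin, Hist1h1c had 2.25 and 2.66 with Cenpf alone and 1.45 and 2.00 with Mki67 alone, against 0.668 and 0.771 with none. In library 1 these values rested on 100 cells with Cenpf alone and 56 with Mki67 alone. With Ube2c alone it had 1.29 and 0.854, with Ccnb1 (cyclin B1) alone 0.800 and 1.14, and with Top2a (topoisomerase II) alone 0.424 and 1.19, values on which the libraries differed. Hist1h2bc had 3.55 and 4.45 with Cenpf alone and 2.66 and 2.91 with Mki67 alone in the low bin, against 1.44 and 1.72 with none. Low-bin Hist1h4i had 0.463 and 0.581 with Cenpf alone, against 0.0660 and 0.111 with none. The middle bin is given for library 1 only. There Hist1h1c had 1.31 with Cenpf alone, from 46 cells, 0.886 with Mki67 alone and 0.460 with Ube2c alone, against 0.532 with none. With Cenpf alone, Hist1h2bc had 3.49 against 1.77 with none, and Hist1h4i 0.298, from 10 UMIs, against 0.0654. Within the high bin, Hist1h1c had 0.320 and 0.408 with Cenpf alone, against 0.383 and 0.393 with none. Median depth in the low bin was 5543 and 4546 UMIs with Cenpf alone, against 5477 and 4633 with none.

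**Figure D3:**
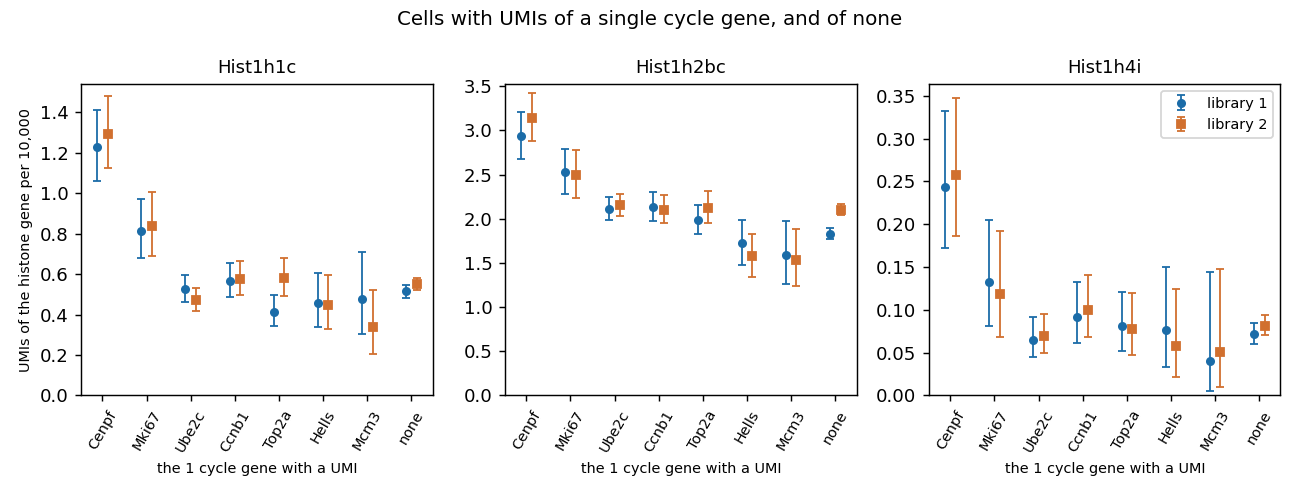
UMIs per 10000 of each histone gene (y axis) in cells that hold UMIs of exactly 1 of the 9 cycle genes (x axis) and, at the right, of none, with 1 point per library and 95% Poisson intervals. Hist1h1c stands at 1.23 and 1.29 with Cenpf alone, against 0.515 and 0.550 with none, over all Krt4+Krt13 bins, which the groups fill unequally. Ung and Dtl alone are not plotted.

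The shares of Hist1h1c and Hist1h2bc moved apart over the Krt4+Krt13 bins. Among cycle-low cells, Hist1h1c had 0.359 and 0.393 UMIs per 10000 in the high bin and 0.520 and 0.604 in the middle bin, against 0.657 and 0.771 in the low bin. The high-bin log2 differences were -0.87 (-1.05 to -0.70) and -0.97 (-1.13 to -0.81), which made it lower by the size rule. Of 4922 genes compared, 25.7% were lower and 9.93% were higher, and the median log2 difference was -0.23. Hist1h2bc went the other way, with 2.21 and 2.28 in the high bin and 1.79 and 2.12 in the middle bin, against 1.42 and 1.72 in the low bin. Its log2 differences of 0.64 (0.54 to 0.74) and 0.40 (0.31 to 0.50) did not pass 1.5-fold in library 2. Hist1h4i had 0.0627 and 0.0586 in the high bin, against 0.0687 and 0.110 in the low bin, at levels too low for a call. Middle against low, none of the 3 genes was called, where 4.99% of 5134 genes were higher and 8.08% lower. Cycle-low cells of the high bin were the deepest, with medians of 15318 and 12412 UMIs, against 5543 and 4649 in the low bin. Per cell, the Hist1h1c count was therefore not lower there. Library 1 had 647 UMIs in 1099 high-bin cells, against 469 UMIs in 1173 low-bin cells. Library 2 had 799 UMIs in 1465 cells, against 518 UMIs in 1335 cells. The drop of Hist1h1c is thus one in its share of a cell's UMIs. After thinning, 8.46% and 10.9% of high-bin cells had a Hist1h1c UMI, against 15.5% and 17.5% of low-bin cells. For Hist1h2bc the shares were 47.4% and 46.1%, against 28.3% and 32.4%.

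Taken over all cells, each pair of genes was found together more often than the separate shares would give. In the high bin this held for Hist1h1c with Hist1h2bc, while the libraries parted for the pairs with Hist1h4i. Over all thinned cells, 548 and 752 cells held both Hist1h1c and Hist1h2bc, against 362 and 478 expected from the shares of each, odds ratios of 2.35 (2.06 to 2.68) and 2.69 (2.39 to 3.03). Each class was also taken by itself. Among cycle-low cells the odds ratios were 1.64 (1.31 to 2.05) and 2.25 (1.85 to 2.72), among cells between the classes 2.67 and 2.85, and among G2/M-high cells 4.13 (3.12 to 5.45) and 3.95 (3.10 to 5.03). In cycle-low cells of the high bin the odds ratios were 1.52 (0.971 to 2.40) and 1.39 (0.989 to 1.97), with intervals that include 1. Over all cells of the high bin they were 1.55 (1.07 to 2.28) and 1.34 (1.0005 to 1.78). High-bin odds ratios of Hist1h1c with Hist1h4i were 0.717 (0.0819 to 2.90) and 1.21 (0.417 to 2.92), from 2 and 6 cells with both. Those of Hist1h2bc with Hist1h4i were 0.661 (0.282 to 1.47) and 1.35 (0.727 to 2.54).

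Hist1h4i was tied to Hist1h1c most in the cells between the classes. There 56 and 51 cells held both, against 25.3 and 20.5 expected, odds ratios of 3.53 (2.39 to 5.19) and 4.24 (2.79 to 6.41). In G2/M-high cells the odds ratios were 1.54 and 1.66, and in cycle-low cells 1.06 (0.401 to 2.38), from 7 cells with both, and 2.86 (1.81 to 4.45). Hist1h2bc with Hist1h4i gave 2.39 and 2.38 in the cells between the classes, 1.14 and 1.76 in G2/M-high cells and 1.26 and 1.5 over all cells. S-high cells held each pair in 0 to 2 cells per library, too few to describe, and 81.0% and 80.1% of them held no UMI of any of the 3 genes.

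**Figure D4:**
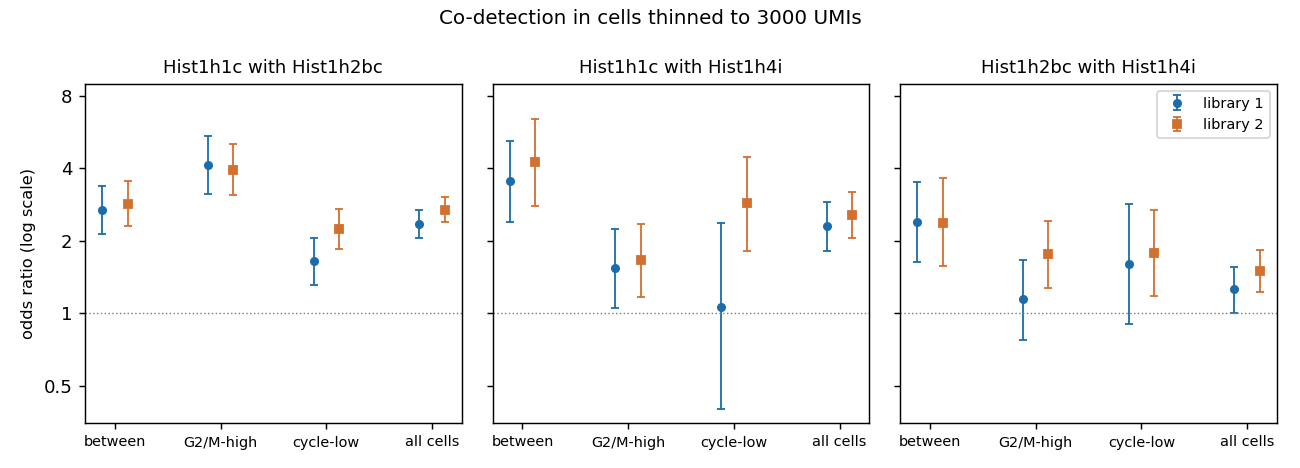
Odds ratio (y axis, log scale) of holding UMIs of both genes of a pair, in cells thinned to 3000 UMIs, for cells between the classes, G2/M-high, cycle-low and all cells (x axis), with 1 point per library and 95% conditional intervals. The dotted line marks 1. Hist1h1c with Hist1h2bc lies above 1 in each class plotted, highest at 4.13 and 3.95 in G2/M-high cells.

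In the low and middle bins, the level of the other 2 genes in cycle-low cells went with that of the third. Cycle-low cells of each bin were split by the summed level of the other 2 genes. The upper set lay at or above the 75th percentile and the lower set at or below the median. In the low bin, Hist1h1c had 1.14 and 1.61 UMIs per 10000 in the upper set, against 0.415 and 0.420 in the lower. For Hist1h2bc the values were 2.29 and 3.02, against 1.10 and 1.28. Hist1h4i had 0.118 and 0.230, from 21 and 39 UMIs, against 0.0387 and 0.0776. In the middle bin, Hist1h1c had 0.963 and 1.25 in the upper set, against 0.309 and 0.321 in the lower. Middle-bin Hist1h2bc had 2.67 and 3.18, against 1.46 and 1.69. Hist1h4i had 0.0775 and 0.172 there, from 13 and 28 UMIs, against 0.0468 and 0.0426. In the high bin the difference was smaller, with 0.468 and 0.540 for Hist1h1c in the upper set, against 0.277 and 0.329 in the lower. Hist1h2bc had 2.60 and 2.50 there, against 2.00 and 2.19. For Hist1h4i the high-bin libraries parted, with 0.0767 and 0.0631, against 0.0432 and 0.0639.

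The other measured histone-cluster genes were lowest either in S-high cells, as Hist1h1c and Hist1h2bc were, or in cycle-low cells, as Hist1h4i was. Of 68 symbols, 66 had at least 1 UMI in the kept cells, 22 had at least 100, and 7 reached 20 CPM in some bin and class of both libraries: the 3 genes above with Hist3h2a, Hist1h1b, Hist1h1e and Hist1h2ae. Hist3h2a, an H2A gene, was lowest in S-high cells. Over all bins it had 0.356 and 0.324 UMIs per 10000 in S-high cells, 0.992 and 0.913 in G2/M-intermediate cells and 0.639 and 0.633 in G2/M-high cells, against 0.670 and 0.698 in cycle-low cells. Unlike Hist1h1c, it was not called in G2/M-intermediate against cycle-low cells, with log2 differences of 0.50 and 0.54 in the low bin and 0.67 and -0.07 in the middle bin. Its annotated transcript runs on for 1643 bases past the stem-loop printed above and has a poly(A) signal in its last 50 bases. Hist1h1b, another linker histone, had 0.196 and 0.264 in S-high cells and 0.336 and 0.278 in G2/M-high cells, against 0.00441 and 0.00387 in cycle-low cells. Hist1h1e had 0.160 and 0.188 in S-high and 0.327 and 0.268 in G2/M-high cells, against 0.0321 and 0.0235 in cycle-low cells. Hist1h2ae had 0.258 and 0.222 in S-high and 0.588 and 0.362 in G2/M-high cells, against 0.0126 and 0.0110 in cycle-low cells. Those 3 genes were thus lowest in cycle-low cells, as was Hist1h4i, and Hist1h1c and Hist1h2bc were lowest in S-high cells. In G2/M-intermediate cells the 3 genes stood below G2/M-high cells, with Hist1h1b at 0.104 and 0.0935, Hist1h1e at 0.0996 and 0.0901 and Hist1h2ae at 0.237 and 0.148. Hist1h4i differed from them in this, at 0.407 and 0.330 in G2/M-intermediate cells against 0.333 and 0.297 in G2/M-high cells.

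**Figure D5:**
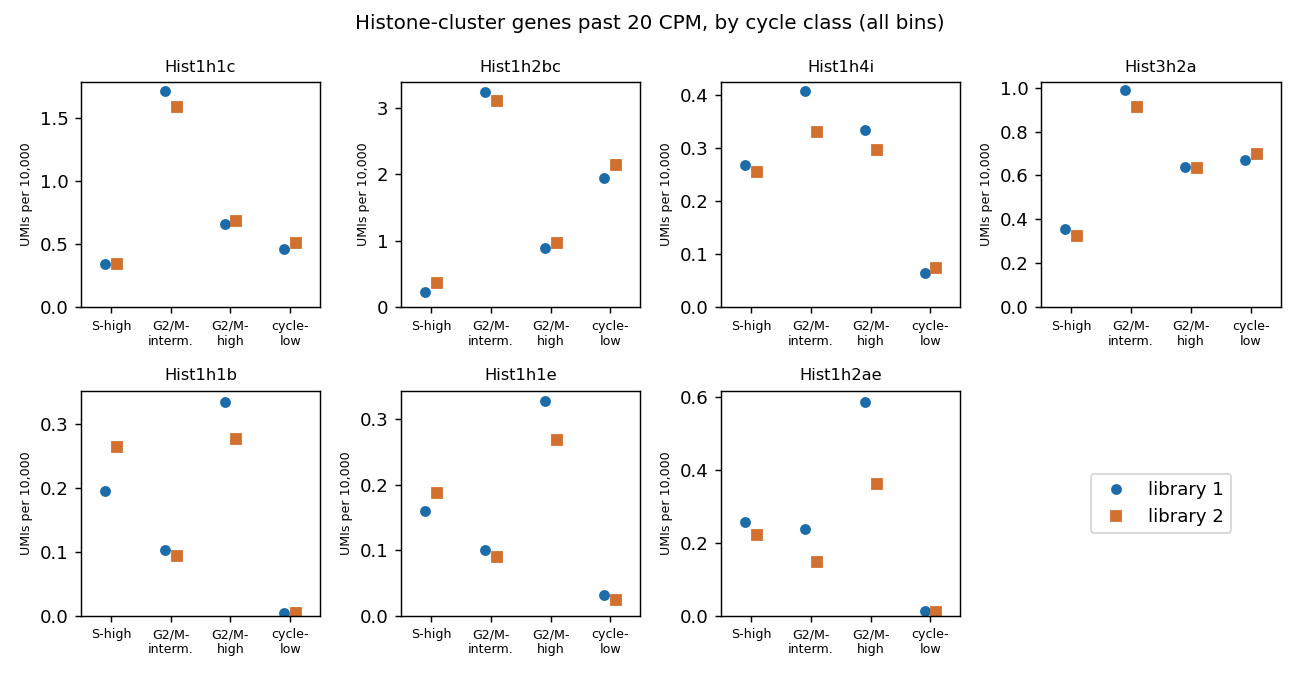
UMIs per 10000 (y axis, a separate scale for each gene) of the 7 histone-cluster genes that reached 20 CPM, by cycle class over all bins (x axis), with 1 point per library. Hist1h1c, Hist1h2bc and Hist3h2a are highest in G2/M-intermediate cells and lowest in S-high cells, and Hist1h4i, Hist1h1b, Hist1h1e and Hist1h2ae are lowest in cycle-low cells.

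Genes that act on histone mRNA or replace the cluster histones were looked at in the same classes. Low-bin S-high cells against cycle-low cells gave 3 measured histone-cluster genes, all lower (Hist1h1c, Hist1h2bc and Hist3h2a), where 3.56% of all genes were lower and 9.91% higher. All 21 measured DNA replication genes were higher, in a class that was itself defined by such genes. Of 12 measured genes of histone mRNA 3′ end processing, 4 were higher and 0 were lower, beside 9.91% and 3.56% of all genes, with a median log2 difference of 0.62, against -0.02 over all genes. Slbp, the stem-loop binding protein, averaged 601 CPM in S-high cells, against 56.2 CPM in cycle-low cells, with log2 differences of 3.41 and 3.42. Of 10 measured replication-independent histone genes, 4 were higher and 0 were lower: H2afx, H2afz, H2afv and Cenpa, the centromeric H3 variant. In low-bin G2/M-intermediate cells, Cenpa averaged 312 CPM, against 18.8 CPM in cycle-low cells, and Slbp 104 CPM, against 56.2 CPM. Both were lower there than in the other G2/M-high cells, which averaged 737 CPM of Cenpa and 183 CPM of Slbp.

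Cycle-low cells with the most of the 3 genes differed in few other genes. Member-high cells, at or above the 75th percentile of the summed level, were set against member-low cells, at or below the median, with the 3 genes left out. In the low bin 6 genes (0.114% of 5273) were higher and 20 (0.379%) were lower. Cenpa led the higher ones, at 39.0 CPM in member-high cells against 12.6 CPM in member-low cells, with log2 differences of 1.62 and 1.63. Igfbp3, a binding protein for insulin-like growth factors, averaged 252 CPM against 122 CPM (0.98 and 1.10), and Hist3h2a 114 CPM in member-high cells with 394 UMIs (0.83 and 1.03). Il1r2, Krt24 and Igsf9 were the other higher genes. The 10 lowest included Cd74, H2-Aa, H2-Ab1 and H2-Eb1, genes of antigen presentation, and Cd52, Ctss and Tyrobp, genes of immune cells. Cd74 averaged 279 CPM in member-high cells, against 1059 CPM in member-low cells, with log2 differences of -6.53 and -1.53, so that the libraries differed widely in its size.

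Removing 93 cells of each library with many UMIs of antigen-presenting, T or NK or glandular markers, a step added after these values were seen, left 8 higher and 5 lower genes in the low bin. Cenpa, Igfbp3, Hist3h2a, Il1r2 and Igsf9 were again higher, and Epcam, Cdkn1a and Jun joined them. The lower genes were then Krt1 and Krt10, keratins of cornifying epithelium, with Dkk3, Peg3 and Sprr2f.

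In the middle bin 10 genes (0.201% of 4964) were higher in member-high cells and 7 (0.141%) were lower. Igfbp3 had the largest difference there, at 76.0 CPM against 20.1 CPM (2.41 and 1.78), with Epcam at 85.9 CPM against 38.4 CPM (1.31 and 1.04), Krt24 at 198 CPM against 91.0 CPM (1.21 and 1.03) and Cenpa at 27.4 CPM against 13.0 CPM (0.99 and 1.16). F3, Krt6a, Endou, Gsta1, Krt23 and Hmgn2 were the other higher genes. Alox15 and Hpgd, which handle oxidised fatty acids and prostaglandins, were lower, Alox15 at 45.4 CPM against 89.3 CPM (-1.10 and -0.86) and Hpgd with log2 differences of -0.76 and -0.76. Prlr, Chil4, Glmn, Rerg and Pecr were the other lower genes. In the high bin 4 genes (0.0904% of 4425) were higher, Crct1, Ly6g6c, Sprr1a and Calm4, and 1 (0.0226%) was lower, Chil4. Member-high and member-low cells differed little in depth, with medians of 5617 and 4658 UMIs against 5556 and 4672 UMIs in the low bin.

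Across the 9 combinations of bin and class that held at least 30 cells in both libraries, the 3 genes were not alike. Pearson's r of log2(CPM + 5) between Hist1h1c and Hist1h2bc was 0.39 in library 1 and 0.36 in library 2, between Hist1h1c and Hist1h4i 0.47 and 0.52, and between Hist1h2bc and Hist1h4i -0.46 and -0.45. These points share cells, depth and library, and the values describe likeness only. The genes most like Hist1h1c by the lower r of the libraries were Elf1 (0.90), Psmb1 (0.87), Mgea5 (0.87), Top1 (0.84) and Pigt (0.83). Those most like Hist1h2bc were Idnk (0.93), Arpc5, Mob4, Pdcd2 and Eif2b4 (0.90). Those most like Hist1h4i were Hsp90b1 (0.96), Cenpw, Rnaseh2c, H2afz and 2700094K13Rik (0.93). Across single cells, Spearman's rho with the G2/M-gene sum was 0.24 and 0.18 for Hist1h4i and -0.13 and -0.18 for Hist1h2bc, weak values in sparse counts.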

How the data were processed

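The deposited values are UMI counts per gene and cell barcode, 1 matrix per library, and per the submitters' processing notes Cell Ranger and the mouse build mm10 were used; the version, the gene annotation and the cell filter are not given in the sources used here. The 3 genes, the gene lists and the comparisons were chosen with earlier results of these data known, and the G2/M-intermediate class, the single-gene groups and the removal of cells with other cells' markers were added after their levels were seen. Cells of a class were summed within a library (Python 3.11.15, numpy 2.4.6, scipy 1.17.1, pandas 2.3.3), and levels are UMIs per 10000 or per 1000000 (CPM). Intervals are exact Poisson for levels, exact conditional binomial for log2 differences and conditional for odds ratios, at 95%. As both libraries come from 1 suspension, no significance test was made: a gene was called when each library alone showed a change of 1.5-fold or more with the same sign and its mean was 20 CPM or more, a count of 0 being set to 3. Shares of cells and co-detection used cells thinned to 3000 UMIs, which left out no cell. Doublets were not called and not removed. On counts simulated for the low bin, the rule recovered 93% of doubled and 75% of halved genes in S-high against cycle-low cells (5247 genes) and 100% and 81% in G2/M-high against cycle-low cells (5250 genes), and called 0.0987% and 0% of unchanged genes. The simulated counts were Poisson draws from a single mean profile shared by both libraries. They held no variation between cells or libraries, so these shares cover counting error only and not the rule's errors on the real cells. Genes named in the text were the 3 genes, every histone-cluster gene past 20 CPM in a bin and class of both libraries, up to 4 genes of each list furthest past the rule, the 5 genes most like each of the 3, and in the member-high comparison the 10 highest and 10 lowest. Transcripts came from GENCODE M21 on GRCm38, the assembly of mm10, where 67 of 69 histone-cluster identifiers were found.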

Additional observations from a re-analysis of the deposited data

How the results depend on the processing

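Of 502 values recomputed for 44 results under 15 settings, 441 kept their direction and call. No paired analysis was possible because both libraries belong to 1 group. With the S and G2/M sums at 8 per 10000, Hist1h1c in S-high against cycle-low cells of the low bin was -0.57 (log2) and not called, Hist1h4i in G2/M-high against cycle-low was 1.79 and not called, and 1 histone-cluster gene was higher in S-high cells instead of 0. With the sums at 3, Hist1h2bc in G2/M-high against cycle-low cells of the low bin was -0.52 and not called, as with thinned cells (-0.48) and with a mean over cells (-0.59), and Hist1h4i in the middle bin was 2.26 and called, as with thinned cells (2.47). Hist1h2bc in the high against the low bin was 0.75 and called with median-of-ratios scaling. With 1 library alone, Hist1h2bc ranged from 0.44 to 0.92 in middle-bin G2/M-intermediate against cycle-low cells and from 0.40 to 0.64 in the high against the low bin, and Hist1h4i from 0.23 to 0.69 in middle-bin G2/M-intermediate against the other G2/M-high cells. The odds ratio of Hist1h1c with Hist1h4i in middle-bin cycle-low cells ranged from 0.602 to 4.08 by library, and was 2.67 with a stricter cell filter (1000 genes, 5% mitochondrial UMIs) and 2.02 without the deepest barcodes; in the low bin it was 1.97 and not called with every barcode. That of Hist1h2bc with Hist1h4i was 1.07 (low) and 1.41 (middle) with the stricter cell filter and 2.12 and 1.72 without cells high in other cells' markers, not called. S-high against cycle-low cells of the low bin gave 540 higher and 194 lower genes, and 250 and 76 at 50 CPM, 5271 and 660 with no filter on low counts (38 of the higher being histone-cluster genes), 303 and 48 at 2-fold, 101 lower with sums at 3, and 396 to 466 lower with 1 library. Member-high against member-low cells gave counts that moved most. In the low bin 6 genes were higher and 20 lower, and 50 to 53 and 46 to 86 with 1 library, 14 and 39 with the stricter cell filter, 14 and 31 thinned, 3 and 7 at 50 CPM, 2198 and 357 with no filter, 1 and 13 at 2-fold, and 5 lower without other cells. In the middle bin 10 were higher and 7 lower, and 63 to 67 and 65 to 66 with 1 library, 20 and 11 with the stricter cell filter, 36 and 23 thinned, 1917 and 299 with no filter, 3 and 0 at 2-fold, 4 lower at 50 CPM, 18 higher without the deepest barcodes and 5 higher with bin limits of 60 and 500. The cause of these changes was not tested, beyond fewer or more genes and libraries entering. Hist1h4i rested on few UMIs in S-high cells and in the high bin.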

Other observations

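Hist1h2ap, named here after its values were seen, differed between libraries more than the genes above: it had 736 UMIs in library 1 and 279 in library 2. It stood at 0.240 and 0.119 UMIs per 10000 in S-high cells and 0.364 and 0.122 in G2/M-high cells, against 0.00346 and 0.000892 in cycle-low cells. Its annotated transcript ends 3 bases after the stem-loop.

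In low-bin G2/M-intermediate cells, Ccnd2 and Cdkn2d had levels between those of cycle-low and the other G2/M-high cells. Ccnd2, a G1 cyclin, averaged 570 CPM in them, against 279 CPM in the other G2/M-high cells, with log2 differences of 0.92 and 1.14, and against 875 CPM in cycle-low cells. Ccnd2 was not called against cycle-low cells, nor was any of the 3 measured G1 cyclins. Cdkn2d, an inhibitor of cyclin-dependent kinases, averaged 66.6 CPM, against 283 CPM in the other G2/M-high cells and 21.4 CPM in cycle-low cells. Of 10 measured cycle exit and inhibitor genes, 1 was higher than in cycle-low cells, beside 2.84% of all genes. Against the other G2/M-high cells, 2 of 12 were higher and 3 lower, beside 1.44% and 6.38% of all genes. The class was cut on G2/M genes, so a level between the others is partly set by its definition.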
